A study of Mus musculus with 2 samples.

Results

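The miR-15, miR-16, miR-195 and miR-497 genes form a microRNA (miRNA) family of 3 clusters with 2 genes each, on mouse chromosomes 14, 3 and 11. All 6 genes, Mir15a, Mir16-1, Mir15b, Mir16-2, Mir195a and Mir497, were chosen by name from the 2202 miRNA genes counted. Small RNAs were sequenced from hippocampus, labelled as a layer of it without saying which, of female B6CASTF1/J mice aged 2 months, with no treatment named. These animals are F1 hybrids of a laboratory strain and a castaneus-derived strain. The series holds 1 group of 2 libraries, replicates 1 and 2, from separate tissue records under 1 shared donor record, with no other strain or age. Separate animals are not stated, so differences between the libraries may be partly technical.

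A miRNA represses messenger RNAs that pair with its seed, bases 2 to 8 from its 5′ end, and is cut from a hairpin that yields a 5p and a 3p arm. Members of this family share a 5p seed and are known for restraining the cell cycle, through cyclins D and E and their kinases, and for repressing the survival gene Bcl2. The miR-15a and miR-16-1 cluster is best known as a tumour suppressor locus lost in chronic lymphocytic leukaemia. The miR-195 and miR-497 cluster is known for holding heart muscle and muscle stem cells out of the cell cycle. Neurons of the adult hippocampus have left the cell cycle, while progenitors of the dentate gyrus still divide.

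The 5p arms are shown first because they define the family and decide which genes a short read can be told apart by. Capitals mark the seed, and the sequences are those of RefSeq on GRCm38, the assembly also called mm10, where 6 of 6 members were matched.
miR-15a-5p: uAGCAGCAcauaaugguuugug
miR-15b-5p: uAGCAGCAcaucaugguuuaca
miR-16-5p: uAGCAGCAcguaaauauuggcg
miR-195a-5p: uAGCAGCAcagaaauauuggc
miR-497a-5p: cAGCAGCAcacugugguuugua
All carry the same 7 seed letters, AGCAGCA, and differ only outside them. Of the 22 bases, 18 were identical between miR-15a-5p and miR-15b-5p, and 19 of 21 were identical between miR-16-5p and miR-195a-5p. Fewer, 12 of 21, were identical between the cluster partners miR-195a-5p and miR-497a-5p.

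The 3p arms share no seed with each other, and each occurs in 1 annotated miRNA hairpin only. Capitals again mark bases 2 to 8.
miR-15a-3p: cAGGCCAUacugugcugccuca
miR-16-1-3p: cCAGUAUUgacugugcugcuga
miR-15b-3p: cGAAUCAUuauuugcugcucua
miR-16-2-3p: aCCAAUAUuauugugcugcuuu
miR-195a-3p: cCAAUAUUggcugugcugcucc
miR-497a-3p: cAAACCACacugugguguuag

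The miR-16 genes are a special case, since miR-16-5p is letter for letter the same from Mir16-1 and Mir16-2. In the hairpins below, capitals mark the longest stretch that both share, 23 bases that hold the whole 5p arm and 1 further base.
Mir16-1 hairpin: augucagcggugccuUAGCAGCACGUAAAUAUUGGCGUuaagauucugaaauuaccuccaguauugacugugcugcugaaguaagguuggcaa
Mir16-2 hairpin: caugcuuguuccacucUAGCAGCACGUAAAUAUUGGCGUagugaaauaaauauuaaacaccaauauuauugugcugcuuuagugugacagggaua
A read that lies within this stretch fits both genes equally well. The deposited tables keep reads that map to several places as a total with no gene, 45.9% of the reads of replicate 1 and 48.4% of those of replicate 2. The counts of Mir16-1 and Mir16-2 can therefore hold reads of the 3p arms or reads that reach past the stretch, and they do not measure miR-16-5p. How many of the unplaced reads were miR-16-5p is not given in these tables. For the other 4 members, the longest stretch shared with another annotated hairpin was 12 to 16 bases, shorter than a mature miRNA, and each of their 5p arms occurs in 1 hairpin, also when 1 mismatch is allowed. A read from elsewhere in the genome was not looked for.

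The clusters are compact, and both genes of each lie on the same strand. Mir15a (ENSMUSG00000093007.1, chromosome 14, 61632027 to 61632110, minus strand) is intronic to Dleu2, a long non-coding RNA gene. Mir16-1 (ENSMUSG00000092995.1, 61631880 to 61631972) follows 54 bases downstream in Dleu2 and overlaps an annotated Dleu2 exon. Mir15b (ENSMUSG00000065580.2, chromosome 3, 69009772 to 69009835, plus strand) and Mir16-2 (ENSMUSG00000065606.1, 69009902 to 69009996) lie 66 bases apart in an intron of Smc4, which encodes a condensin subunit that compacts chromosomes in mitosis. Mir497 (ENSMUSG00000105220.1, chromosome 11, 70234717 to 70234800, plus strand) and Mir195a (ENSMUSG00000065411.2, 70235042 to 70235135) lie 241 bases apart, with no host gene in GENCODE M21. On the other strand, Mir497b (70234692 to 70234816) covers the whole Mir497 hairpin.

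Levels are given as counts per 1000000 sense counts on miRNA genes (CPM). They are not divided by length, since a read covers a whole mature miRNA and the members' arms are 21 or 22 bases long. The libraries held 4517648 and 5979247 sense counts on miRNA genes, so a count of 0 allows up to 0.664 and 0.502 CPM. Intervals and these limits cover counting error only, because amplified reads are not independent molecules. The lists of neuron, oligodendrocyte, microglia and leukocyte, endothelial and mural, erythroid, and choroid plexus and ependyma markers hold 23 genes, of which 23 had counts in both libraries. Neuron markers summed to 47437 CPM in replicate 1 and to 52237 CPM in replicate 2, and oligodendrocyte markers to 6526 and 6974 CPM. Of the 6 neuron markers, Mir132 was called higher in replicate 2 in the test described below, at 16627 and 24242 CPM, 4 were called lower and 1 was not called, with a median log2 ratio of -0.05. The 2 oligodendrocyte markers went in opposite directions. Mir219a-2 was called higher in replicate 2, at 2256 and 2990 CPM, and Mir338 lower, at 4269 and 3984 CPM.

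Together the 6 members took up 0.513% ± 0.0544 (SD, n = 2) of the sense counts. The share was 0.475% in replicate 1 (95% Wilson interval 0.468 to 0.481) and 0.552% in replicate 2 (0.546 to 0.558). The chromosome 11 cluster made up most of it, 73.4% of the members' counts in replicate 1 and 78.4% in replicate 2. The chromosome 14 cluster gave 22.9% and 15.2%, and the chromosome 3 cluster 3.72% and 6.33%. This order of the clusters, 11 before 14 before 3, was the same in both libraries, but it holds for placed reads, since miR-16-5p reads carry no gene and are missing from the chromosome 14 and 3 sums.

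In the chromosome 11 cluster, Mir195a reached 1399.6 CPM in replicate 1 and 3059 in replicate 2, from 6323 and 18288 counts. Its mean of 2229 ± 1173 CPM (SD, n = 2) was the highest in the family by placed reads and ranked 60 among the 2202 genes. Mir497 reached 2083 CPM in replicate 1 and 1268 in replicate 2, from 9412 and 7583 counts, with a mean of 1676 ± 576 CPM and rank 74. The ranges of Mir195a and Mir497 overlapped, and each was the higher of the pair in 1 library, so their order is not settled by these data.

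In the chromosome 14 cluster, Mir15a reached 968 CPM in replicate 1 and 629.7 in replicate 2, from 4373 and 3765 counts. Its mean of 799 ± 239 CPM ranked 108, and both of its values lay below both values of Mir497. Mir16-1 had 542 and 1265 counts, or 119.97 and 212 CPM, with a mean of 166 ± 64.8 CPM and rank 182. These counts do not include reads inside the stretch shared with Mir16-2.

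In the chromosome 3 cluster, Mir15b had 658 and 1665 counts, or 146 and 278 CPM, a mean of 212 ± 93.9 CPM and rank 166. Mir16-2 was the lowest member by placed reads in both libraries, with 140 and 423 counts, or 31.0 and 70.7 CPM, a mean of 50.9 ± 28.1 CPM and rank 235. Ordered by mean level of placed reads, the family ran from Mir195a through Mir497, Mir15a, Mir15b and Mir16-1 to Mir16-2. The neighbours Mir195a and Mir497 overlapped between libraries, as did Mir15b and Mir16-1, whereas Mir497 and Mir15a, Mir15a and Mir15b, and Mir16-1 and Mir16-2 did not. The lower library of Mir15a, at 629.7 CPM, stood above the higher library of Mir15b, at 278 CPM. All 6 members passed the minimum of 10 counts in both libraries, and their median of mean levels was 505 CPM beside 85.3 CPM over the 420 genes that passed.

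**Figure D1:**
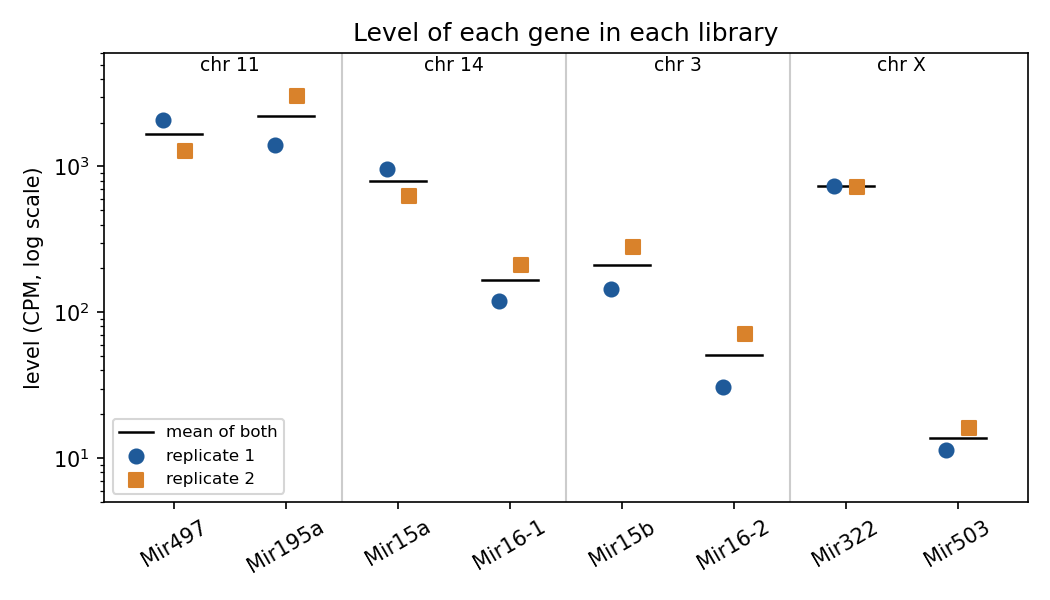
Level of each gene in CPM (log axis) in replicate 1 (circles) and replicate 2 (squares), with the mean of both as a line, for the 6 members by cluster and for Mir322 and Mir503 of chromosome X. Mir497 and Mir195a cross over between the libraries, Mir15a falls from 968 to 629.7 CPM, and Mir322 stands at 734 and 727 CPM.

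Partners of a miRNA cluster are, as background, usually cut from a shared primary transcript. Their ratio within a library does not depend on how the library is scaled. Mir15a exceeded Mir16-1 by 8.07-fold in replicate 1 (exact binomial 95% interval of the counts 7.38 to 8.84) and by 2.98-fold in replicate 2 (2.79 to 3.17). Mir15b exceeded Mir16-2 by 4.70-fold in replicate 1 (3.91 to 5.68) and by 3.94-fold in replicate 2 (3.54 to 4.39). In both clusters the miR-15 gene was the higher partner in each library. Since miR-16-5p reads within the shared stretch carry no gene, these folds describe the placed reads and are not the ratio of miR-15 to miR-16.

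On chromosome 11 the arms of both partners each occur in 1 annotated hairpin only, though other places in the genome were not searched. The order of these partners turned between the libraries. Mir497 exceeded Mir195a by 1.49-fold in replicate 1 (1.44 to 1.54), whereas Mir195a exceeded Mir497 by 2.41-fold in replicate 2 (2.35 to 2.48). Mir497 thus gave 59.8% of the cluster's counts in replicate 1 (59.0 to 60.6) and 29.3% in replicate 2 (28.8 to 29.9). The share of Mir15a in its cluster moved in the same direction, from 89.0% (88.1 to 89.8) to 74.9% (73.6 to 76.0). For Mir15b the share was 82.5% (79.6 to 85.0) and 79.7% (78.0 to 81.4), and these intervals overlapped.

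**Figure D2:**
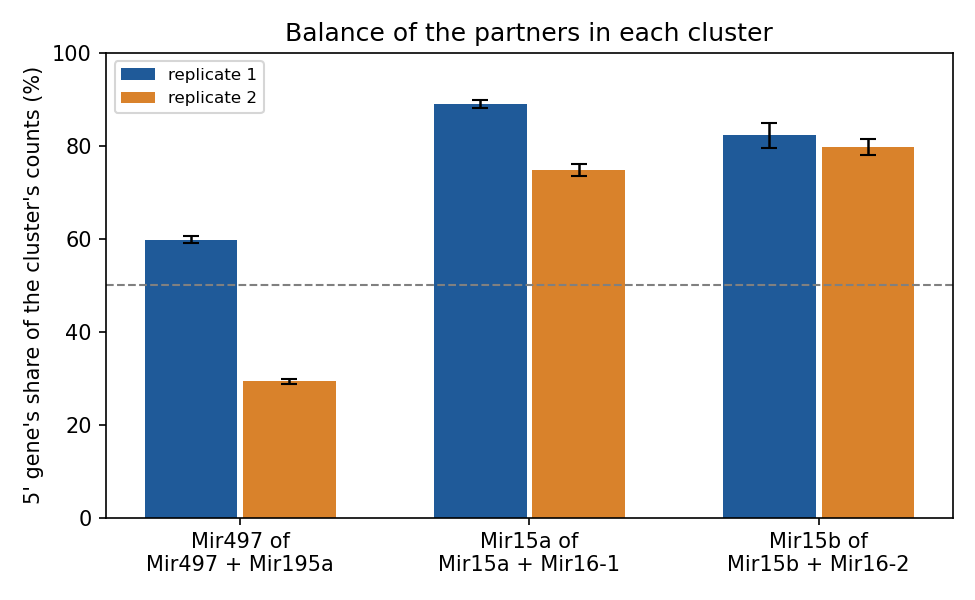
Share of each cluster's counts, in percent, that came from its 5′ gene in replicate 1 and replicate 2, with exact binomial 95% intervals of the counts. The dashed line marks equal counts of both partners. Mir497 lies above it in replicate 1 at 59.8% and below it in replicate 2 at 29.3%, while Mir15a and Mir15b stay above it.

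These ratios were set beside all 107 pairs of neighbouring miRNA genes on the same strand that lie within 10000 bases and have at least 10 counts in both libraries. Over these pairs the partners differed by a median of 6.11-fold, from the mean of the log2 ratios of both libraries. The corresponding mean log2 ratios were 2.29 ± 1.02 (SD, n = 2) for Mir15a over Mir16-1, 2.10 ± 0.18 for Mir15b over Mir16-2 and -0.35 ± 1.30 for Mir497 over Mir195a. Between the libraries the partner ratio moved by a median of 1.36-fold over the 107 pairs. It moved by 3.59-fold for Mir497 and Mir195a, the third largest move, by 2.71-fold for Mir15a and Mir16-1, the sixth largest, and by 1.19-fold for Mir15b and Mir16-2, which ranked 74. The more abundant partner switched between libraries in 5 of the 107 pairs (4.67%), and Mir497 with Mir195a was the 1 member pair among them.

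**Figure D3:**
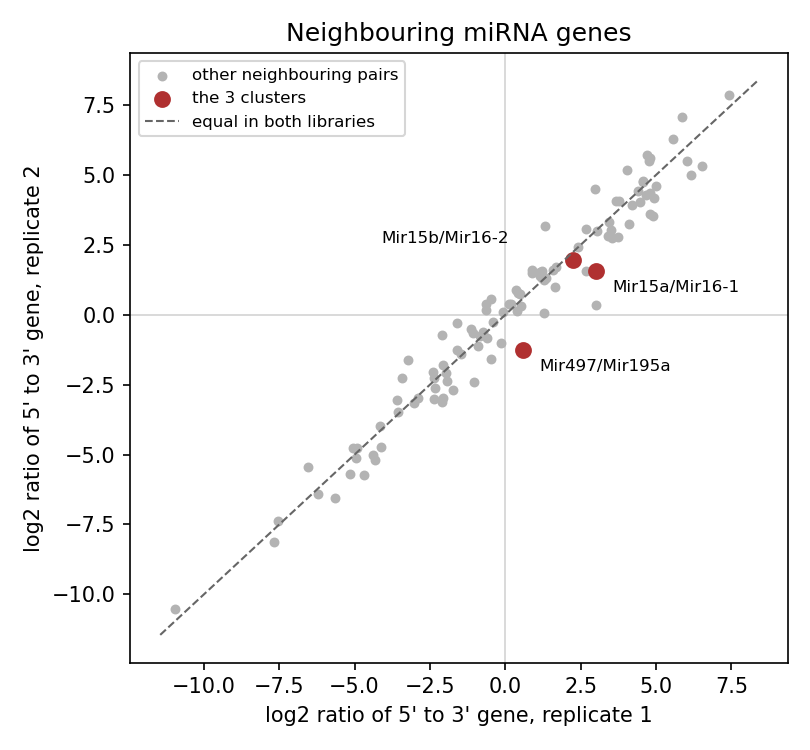
Log2 ratio of the 5′ to the 3′ gene in replicate 1 (x axis) and replicate 2 (y axis) for 107 pairs of neighbouring miRNA genes, with the 3 clusters in red. The dashed line marks equal ratios in both libraries. Mir497/Mir195a lies across the zero lines, at 0.57 and -1.27, and Mir15b/Mir16-2 lies close to the dashed line, at 2.23 and 1.98.

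The libraries were then compared gene by gene. A two-sided Fisher's exact test set the counts of a gene against the remaining sense counts, and p-values were adjusted by Benjamini and Hochberg over the 420 genes tested. This compares 2 libraries of the same group and no condition. Of the 420 genes, 56.9% passed the threshold of 0.05 in either direction, 27.1% as higher and 29.8% as lower in replicate 2, so passing it is common here. With a minimum of 100 counts in both libraries, which all 6 members met, 200 of 270 genes passed. All 6 members passed, 4 as higher and 2 as lower in replicate 2. The median absolute log2 ratio of replicate 2 to replicate 1, on the scale log2(CPM + 0.5), was 0.87 over the members and 0.30 over all tested genes.

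Mir16-2 and Mir195a differed most among the members, with a log2 ratio of 1.18 (95% interval 0.91 to 1.48; adjusted p = 1.3e-18 by Fisher's exact test) and of 1.13 (1.09 to 1.17; adjusted p too small to be stored as a number above 0). Of all tested genes, 7.86% lay as far from 0 as Mir16-2 and 8.33% as far as Mir195a. Mir15b was 1.91-fold and Mir16-1 1.76-fold higher in replicate 2, at log2 ratios of 0.93 (0.80 to 1.07) and 0.82 (0.67 to 0.97). In the other direction, Mir497 was 1.64-fold higher in replicate 1, at a log2 ratio of -0.72 (-0.76 to -0.67), and Mir15a 1.54-fold, at -0.62 (-0.68 to -0.56). Between 11.9% and 24.0% of all tested genes lay as far from 0 as these 4 members. Both clusters with a Mir15a or Mir497 gene thus held 1 gene in each direction, while both genes of the chromosome 3 cluster were higher in replicate 2. The sum of the 6 members differed less, at 1.16-fold higher in replicate 2, than any single member.

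**Figure D4:**
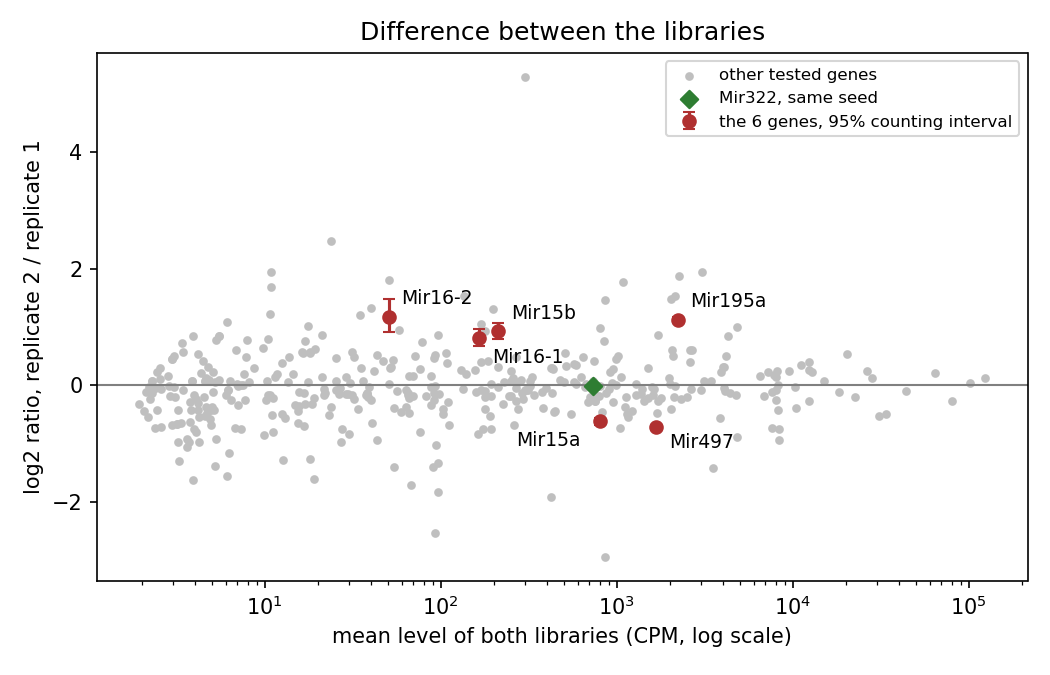
Log2 ratio of replicate 2 to replicate 1 against the mean level in CPM (log axis) for the 420 tested genes, with the 6 members in red, their 95% counting intervals, and Mir322 in green. Mir16-2, Mir195a, Mir15b and Mir16-1 lie at 0.82 to 1.18, Mir15a and Mir497 at -0.62 and -0.72, and Mir322 near 0.

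Markers of other cell types and of blood were read beside these differences. Summed erythroid markers came to 95.4 CPM in replicate 1 and to 142 CPM in the other library, 1.49-fold higher in replicate 2, with 2 of 3 genes called higher and none lower. The remaining gene, Mir486, was not called, at 22.1 and 21.1 CPM. Endothelial and mural markers summed to 19223 and 22325 CPM, 1.16-fold higher, with 2 of 3 genes called higher and none lower. Mir145a, the gene left, was not called, at 320 and 304 CPM. Microglia and leukocyte markers summed to 1762 and 2063 CPM, 1.17-fold higher, with 2 of 5 genes, Mir146 and Mir150, called higher and none lower. The other 3, Mir142, Mir155 and Mir223, were not called, at 71.1 and 61.2, 27.9 and 25.1, and 18.8 and 15.1 CPM, and the median log2 ratio of the list was -0.15. Choroid plexus and ependyma markers summed to 1501 and 2022 CPM, 1.35-fold higher, with 2 of 4 genes, Mir204 and Mir34c, called higher and none lower. The other 2, Mir34b and Mir449a, were not called, at 27.0 and 20.7 and at 93.0 and 92.3 CPM. No marker gene was at 0 in either library. Like these sums, 4 members were higher in replicate 2, whereas Mir15a and Mir497 were lower. The part of other cells in these differences was not tested.

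Other genes give the same seed. Among the RefSeq mature arms used, 5 further genes carried that seed: Mir322, Mir195b, Mir6342, Mir6353 and Mir6419. Of these 5, Mir322 on chromosome X was the 1 with more than 1 count in a library. Mir322 had 3318 and 4348 counts, or 734 and 727 CPM, close to the level of Mir15a. Its log2 ratio was -0.01 (-0.08 to 0.05; adjusted p = 0.764 by Fisher's exact test), while all 6 members passed. Mir195b, named like Mir195a but on chromosome 2, had 0 and 1 counts, and Mir6342, Mir6353 and Mir6419 had none. By placed reads, the 6 members and these genes together held 0.548% and 0.624% of the counts, of which the further genes gave 13.4% and 11.6%. These are not shares of arms with the seed. The counts can hold 3p reads, and they leave out miR-16-5p reads within the stretch shared by Mir16-1 and Mir16-2. The 5p arm of Mir322 is shown because it carries the seed. The counts of Mir322 do not separate this arm from its 3p arm, which has a different seed.
miR-322-5p: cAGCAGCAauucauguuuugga

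A wider group shares the letters AGCAGC near the 5′ end of a mature arm, and 6 of its genes outside the family were listed: Mir322, Mir503, Mir103-1, Mir103-2, Mir107 and Mir1907. No mature arm of Mir1907 was among the sequences used, so its seed was not compared with that of the members. Its counts were 0 and 1. Of the 6, 5 could be tested, of which 1 was lower, none was higher and 4 did not pass, with a median log2 ratio of -0.01 beside -0.07 over all tested genes. Mir503, the neighbour of Mir322 on chromosome X, had 51 and 96 counts, or 11.3 and 16.1 CPM. Mir107, in an intron of the pantothenate kinase gene Pank1, was the most abundant of the group by placed reads. Its levels of 3099 and 2934 CPM lay above the mean of every member, but in replicate 2 Mir195a was higher, at 3059 CPM. Mir107 was lower in replicate 2 than in replicate 1, at a log2 ratio of -0.08 (adjusted p = 3.2e-06 by Fisher's exact test). Mir103-1 in Pank3 and Mir103-2 in Pank2 had levels of 3.54 and 3.34 CPM and of 20.1 and 22.4 CPM, respectively. Their 3p arms are identical, so, as for the miR-16 genes, reads within them carry no gene. The 3p arm of Mir107 occurs in 1 annotated hairpin exactly, but in 3, those of Mir103-1, Mir103-2 and Mir107, when 1 mismatch is allowed. The sequences show this likeness and the seed shifted by 1 base.
miR-103-3p: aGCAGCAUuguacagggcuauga
miR-107-3p: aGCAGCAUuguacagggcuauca

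The column read matters for 1 member. In the column without regard to strand, Mir497 had 0 counts in both libraries, because reads in the overlap of Mir497 and Mir497b belong to both genes there. The other 5 members had the same counts in this column as in the sense column. None of the 6 members had a count in the column of the other strand. Mir497b had 0 sense counts in both libraries, so all reads placed at this locus ran in the direction of Mir497.

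Genes outside the family that were nearest to each member in level were found by Euclidean distance in log2(CPM + 0.5) over the 2 libraries, which is a likeness of 2 values only. For Mir497 these were Mir409 (distance 0.17) and Mir130a (0.33). For Mir195a they were Mir140 in Wwp2 (0.36) and Mir342 in Evl (0.37), and for Mir15a Mir3102 in Arhgef17 (0.14) and Mir346 in Grid1 (0.26). Mir16-1 was nearest to Mir665 (0.16) and Mir3068 (0.17), Mir15b to Mir665 (0.34) and Mir380 (0.36), and Mir16-2 to Snord43 (0.36) and Mir24-1 (0.49). Mir16-1 and Mir15b, from different clusters, thus shared Mir665, which stood at 123 and 236 CPM.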

How the data were processed

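MicroRNA sequencing of hippocampus was available as 1 group of 2 libraries. Per library, the authors deposited 1 table of raw read counts on miRNA genes of mm10 and GENCODE M21, per the deposited notes. Neither aligner nor trimming was given in the sources used here. A table's 3 columns hold the counts of both strands together and of each strand, and the strand column with the larger total was taken as sense. Library sizes leave out the 4 leading totals, of reads with no gene. Of all reads, 38.7% and 36.7% fell on miRNA genes.

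Symbols, positions and hairpins came from GENCODE M21, where all 2202 genes were found, and mature arms from RefSeq. A gene was tested where both libraries had 10 or more counts, by Fisher's exact test (scipy 1.17.1). Where another scaling was used (TMM of edgeR 4.0.16 or size factors of DESeq2 1.42.0), an exact binomial test took its place. edgeR's quasi-likelihood test needs groups to compare and was not used. The test was checked on simulated counts of 426 genes in the replicate comparison, where it recovered 81.8% of 1.5-fold and 89.8% of 2-fold changes. The simulated counts varied by counting error only, so the check does not cover further variation between replicates. In the 2 libraries that variation, the common biological coefficient of variation of edgeR, was 31.1% over the 420 genes tested. Wilson intervals are used for shares of a library and exact binomial intervals for ratios. The members and lists were chosen with earlier results of these data known. Named genes are the members, genes with their seed, the AGCAGC group, genes on the other strand of a member and the 2 nearest genes in level. Alternatives tried were the column of both strands, other denominators, count minimums, scalings, a thinned library, a pseudocount of 5 CPM and leaving out each library.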

Additional observations from a re-analysis of the deposited data

Results flagged for a closer look

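Mir497b, which lies over Mir497 on the other strand, had 0 sense counts but 9412 counts in replicate 1 and 7583 counts in replicate 2 in the column of the other strand. They were flagged as counts outside the sense column of Mir497b, well above the 3 counts that a count of 0 allows. The numbers equal the sense counts of Mir497 in each library, since reads of Mir497 lie on the other strand from Mir497b. They are no further signal, and as counts of Mir497 they enter the comparisons.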

How the results depend on the processing

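The members' summed level of 5132 CPM became 3747 CPM in the column without regard to strand, where Mir497 is at 0, and 5863 CPM with a denominator without the most abundant gene. It was 1932 per 1000000 reads of any kind, a different unit. Without replicate 1 or replicate 2 it ranged from 4748 to 5517 CPM. The mean log2 ratio of Mir497 over Mir195a, -0.35, was -1.27 without replicate 1 and changed sign to 0.57 without replicate 2. It could not be computed in the column without regard to strand. The other partner ratios kept their direction, from 1.57 to 3.01 for Mir15a over Mir16-1 and from 1.98 to 2.23 for Mir15b over Mir16-2. Members called lower in replicate 2 went from 2 to 1 in the column without regard to strand, since Mir497 has no counts there. Under the other 7 alternatives of the test, 4 members stayed called higher and 2 lower, with the highest adjusted p 3.6e-15, for Mir16-2, by Fisher's or the exact binomial test. Over all genes tested, 239 of 420 were called in the report and 200 to 249 under these alternatives, but the number tested differed. With a minimum of 100 counts, which all 6 members met, 200 of 270 genes were called. With no filter on low counts, 249 of 774 were called, so the share called depended on the count minimum. No paired analysis was possible because there is 1 group. Among the named genes, depth limits Mir195b, Mir497b, Mir1907, Mir6342, Mir6353 and Mir6419, at 0 or 1 sense counts, where expression below about 0.664 CPM was not detectable.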

Other observations

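Ratios of members from different clusters are given as values, since the pairs were chosen after their values were seen. Mir497 exceeded Mir15a by 2.15-fold in replicate 1 (exact binomial 95% interval of the counts 2.08 to 2.23) and by 2.01-fold in replicate 2 (1.94 to 2.09), a move of 1.07-fold between the libraries. Mir195a exceeded Mir16-1 by 11.7-fold (10.7 to 12.8) and 14.5-fold (13.7 to 15.3), a move of 1.24-fold, which is more than the 1.19-fold of the partners Mir15b and Mir16-2. Mir16-1 exceeded Mir16-2 by 3.87-fold (3.21 to 4.70) and 2.99-fold (2.68 to 3.35), a move of 1.29-fold. The limit on Mir16-1 and Mir16-2 counts given above holds here too. After the seed, miR-15a-5p and miR-497a-5p share a run of 8 bases, ugguuugu, and miR-16-5p and miR-195a-5p share a run of 10 bases, aaauauuggc. In miR-16-5p this run lies within the stretch shared by Mir16-1 and Mir16-2, so Mir16-1 counts do not measure the arm that holds it. Mir15b, whose arm shares a run of 7 bases, augguuu, with miR-15a-5p, was higher in replicate 2 while Mir15a was lower. Mir15a exceeded Mir15b by 6.65-fold in replicate 1 (6.12 to 7.22) and by 2.26-fold in replicate 2 (2.13 to 2.40). Whether bases of the arm bear on these differences was not tested.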
